A study of Mus musculus with 14 samples.

Results

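The 10 genes described here, Esrrb, Klf4, Klf2, Klf5, Tbx3, Zfp42, Dppa5a, Tcl1, Manba and Jam2, are genes that mouse cells in the naive state of pluripotency are known to use, and they were picked by symbol. Every probe that the array's annotation assigns to those symbols was taken, which gave 21 probes for the 10 genes, of 25697 probes and 16593 genes in all. RNA of mouse pluripotent cell lines and of germ cells had been hybridised to 14 Illumina bead arrays in 8 groups, all of strain C57BL per the labels. Lines hiEGL1 and hiEGL2 (2 arrays each) are cells resembling embryonic germ cells that were induced from primordial germ cells by hypoxia, and these are the only groups labelled as cultured in hypoxia. EG (2 arrays) are embryonic germ cells, the pluripotent cells that primordial germ cells form in conventional culture. PGC11.5 (2 arrays) are primordial germ cells, the unipotent precursors of sperm and egg, taken at 11.5 days post coitum. EpiT9 and EpiE3 (1 array each) are epiblast stem cell lines, ESCf (2 arrays) is a female and ESCm (2 arrays) a male embryonic stem cell line. For the ESC arrays the titles were followed, since a characteristic of the same records calls them embryonic germ cells. The labels do not say whether the arrays of a group came from separate cultures or animals, so p-values measure the spread between these arrays, which may be technical, and they do not say whether animals were pooled.

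Naive pluripotency is the state of the preimplantation epiblast and of embryonic stem cells held in leukaemia inhibitory factor (LIF), a cytokine that acts through STAT3. In the primed state, that of the postimplantation epiblast and of epiblast stem cells, Oct4 persists while much of the naive network is switched off. The nuclear receptor Esrrb, the Krüppel-like zinc-finger factors Klf2, Klf4 and Klf5 and the T-box factor Tbx3 are transcription factors of the naive network, and Zfp42 encodes the zinc-finger protein Rex1, a classic marker of that state. Dppa5a encodes an RNA-binding protein of the KH type, Tcl1 a coactivator of the kinase AKT, Manba the lysosomal enzyme beta-mannosidase and Jam2 a junctional adhesion molecule. Primordial germ cells share part of this network and do not form colonies as embryonic stem cells do until they convert to embryonic germ cells.

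For the promoters of these genes, the 250 bases before the start site were read from RefSeq (build GRCm38.p6), which held 7 such promoters for 6 of the genes, with 2 for Esrrb. The genome build behind the array's probes is not given in the sources used here. Shown 5′ to 3′ on the strand of the gene are the promoter of Zfp42 at chr8:43307010-43307259 (minus strand), the upstream promoter of Esrrb at chr12:86360867-86361116 (plus strand) and the promoter of Klf4 at chr4:55532476-55532725 (minus strand), because the first 2 are those with a match to a motif searched, and Klf4, with none, is the gene that differed most between the hypoxia-induced lines. Capitals mark motif matches.
Zfp42: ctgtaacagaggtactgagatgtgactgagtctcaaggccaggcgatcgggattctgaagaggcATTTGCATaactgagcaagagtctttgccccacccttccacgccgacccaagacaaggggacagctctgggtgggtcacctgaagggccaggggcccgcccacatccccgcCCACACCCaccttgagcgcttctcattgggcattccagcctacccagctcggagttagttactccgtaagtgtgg
Esrrb: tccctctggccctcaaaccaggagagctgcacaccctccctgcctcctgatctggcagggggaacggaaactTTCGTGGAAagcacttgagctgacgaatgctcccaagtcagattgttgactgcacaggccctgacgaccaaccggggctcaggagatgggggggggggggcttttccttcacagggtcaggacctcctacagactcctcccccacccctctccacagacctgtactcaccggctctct
Klf4: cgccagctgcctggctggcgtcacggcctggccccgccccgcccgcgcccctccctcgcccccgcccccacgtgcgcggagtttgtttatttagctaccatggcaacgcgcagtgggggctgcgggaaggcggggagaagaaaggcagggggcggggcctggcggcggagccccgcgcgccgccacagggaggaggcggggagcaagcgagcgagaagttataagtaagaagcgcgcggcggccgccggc
In Zfp42 the first capitals are the octamer of POU factors such as Oct4 (ATTTGCAT), which begins 186 bases before the start site, and the second are CCACACCC, a match of the KLF motif GGGNGTGG on the opposite strand, which begins 75 bases before it. In Esrrb the capitals are TTCGTGGAA, a match of the STAT motif TTCNNNGAA, which begins 178 bases before the start site. Both strands were searched, also for the SOX motif CATTGT, the ESRRB motif TCAAGGTCA and the T-box motif AGGTGTGA, and no motif match overlapped a match of another motif. Among all 32851 promoters of that length the octamer was found in 1.6%, the KLF motif in 15.9%, the STAT motif in 7.02%, the SOX motif in 10.7%, the ESRRB motif in 0.387% and the T-box motif in 1.12%. Each of the octamer, KLF and STAT motifs was thus found in 1 of the 7 promoters, and the other 3 in none, which is a description of these letters only. The share of G and C ranged over the 7 promoters between 52.0% and 74.0%, the highest being that of Klf4, against a median of 52.4% over all promoters.

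Values below are log2 intensities after background correction and quantile normalization, a probe is called detected where its deposited detection p-value is below 0.01, and SE is the standard error of a log2 difference. Where several probes report a gene, the one that is brightest on average over the 14 arrays stands for it. All 10 genes passed the filter of detection on at least 2 arrays, as did 20 of their 21 probes. The exception was Dppa5a probe ILMN_2774896, which was detected on no array. Differences were tested with limma over all 9054 genes that passed, and an adjusted p below 0.05 (Benjamini-Hochberg, over all of these genes) is a call. Between 29.8% and 45.4% of probes were detected per array, and the brightest probe had a raw signal between 11270 and 43341. Replicates correlated at 0.994 to 0.997, apart from PGC11.5, at 0.952. PGC11.5 replicate 1 had the embryonic globins Hba-x at 13.88 and Hbb-bh1 at 12.43, against 7.22 and 6.22 in replicate 2, and neither was detected on any other array, so results on PGC11.5 are also given without each of its arrays. Both PGC11.5 arrays detected the germ cell genes Dazl and Ddx4. Of 11 germ cell genes with a probe they detected 4 or 5, against 5 or 6 in ESCm and 4 in ESCf. Prdm1, Mael, Sycp3, Tdrd1, Rnf17 and Taf7l were detected on neither PGC11.5 array. Of 10 markers of gonadal somatic cells none was detected in PGC11.5. All 20 markers of primed cells were detected in EpiT9 and 17 in EpiE3. The EG and hiEGL arrays, 6 in all, stood apart from the other 8 arrays in the probes they detect, so a comparison across that divide can turn on the probe, as shown further on. In such bulk samples, fewer cells of a type and less RNA per cell cannot be told apart.

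The first comparison asked how far the hypoxia-induced lines carry the naive program of the embryonic germ cells they resemble. All 10 genes were lower in hiEGL, where 61.8% of all genes tested were called (33.4% lower, 28.4% higher). The median difference of the 10 genes was -1.83 on the log2 scale, against -0.04 over all genes tested. Falls ran between 1.37-fold for Tcl1 and at least 17.0-fold for Jam2, and for each gene the 4 hiEGL arrays lay below both EG arrays, as they did for 36.7% of all genes tested. Each line taken alone gave 10 lower genes as well, with 58.8% of all genes called for hiEGL1 against EG (30.7% lower, 28.1% higher) and 59.2% for hiEGL2 against EG (32.7% lower, 26.5% higher). The call of Tcl1 in hiEGL2 was marginal, with an adjusted p by limma of 0.0497 over all genes. Over all probes the adjusted p of the same probe was 0.0545, which is no call. Since EG is a single line, the effect of hypoxia and that of the line cannot be told apart. A random block for the line treats each line as 1 draw. In that fit 8 of the 10 genes were called, where 2895 of all 9054 genes tested were. Klf5 (adjusted p = 0.104) and Tcl1 (adjusted p = 0.471) were not called.

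**Figure D1:**
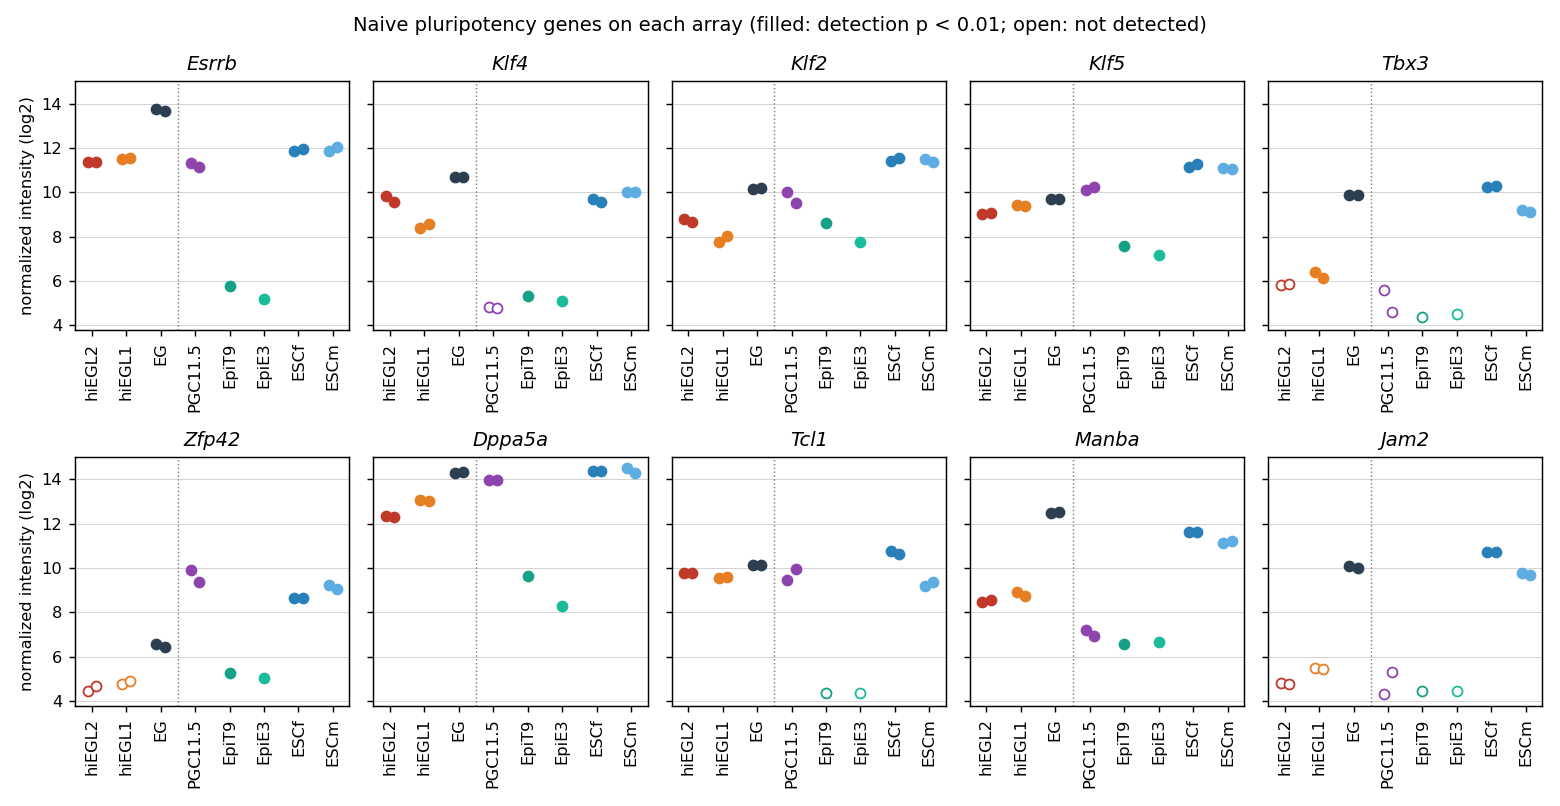
Log2 intensity of the 10 genes on each of the 14 arrays, 1 panel per gene and 1 point per array, with filled points for detected probes and the dotted line between the EG and hiEGL arrays and the other 8. The hiEGL points lie below the EG points in every panel, and the EpiT9 and EpiE3 points lie below the ESC points in every panel.

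Esrrb, which binds many enhancers together with Oct4 and Sox2, had log2 intensities of 11.52 and 11.53 in hiEGL1 and 11.37 and 11.38 in hiEGL2, against 13.75 and 13.69 in EG. Its log2 difference was -2.27 ± 0.07 (SE), a fall of 4.83-fold (adjusted p = 4.13e-09 by limma), and it stayed well above the detection limit in both hypoxia-induced lines. Klf4, a target of LIF signalling and a reprogramming factor, stood at 8.41 and 8.56 in hiEGL1 and at 9.85 and 9.58 in hiEGL2, against 10.70 and 10.70 in EG. Its fall was 3.03-fold (log2 difference -1.60 ± 0.10 SE, adjusted p = 3.55e-07), with hiEGL1 lower than hiEGL2. Klf2, whose protein is known to be stabilised by MEK inhibition, stood at 7.74 and 8.02 in hiEGL1 and at 8.79 and 8.67 in hiEGL2, against 10.14 and 10.19 in EG, a fall of 3.62-fold (adjusted p = 8.08e-07). Klf5, the third factor of that family, had the smallest fall of the 3, at 1.38-fold (adjusted p = 1.84e-04), with 9.42 and 9.37 in hiEGL1 and 9.01 and 9.08 in hiEGL2, against 9.68 and 9.69 in EG.

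Tbx3 stood at 6.39 and 6.11 in hiEGL1, where both arrays detected it, and at 5.82 and 5.88 in hiEGL2, where neither did, against 9.89 and 9.87 in EG. The fall was 14.2-fold (log2 difference -3.83 ± 0.23 SE, adjusted p = 2.59e-07), and its mean over hiEGL includes values at background. Zfp42 was not detected on any hiEGL array and stood at 6.56 and 6.44 in EG. It was at least 1.48-fold lower in hiEGL (adjusted p = 3.81e-06). For such a bound, each undetected array was given the lowest signal of any probe it detected, unless the probe's own value was higher. With EG itself close to that limit, the data allow no larger bound for Zfp42.

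The genes that encode no transcription factor covered the whole range of falls. Dppa5a stood at 13.06 and 13.02 in hiEGL1 and at 12.33 and 12.30 in hiEGL2, against 14.27 and 14.35 in EG, a fall of 3.11-fold (adjusted p = 1.17e-08). Tcl1 stood at 9.57 and 9.61 in hiEGL1 and at 9.76 and 9.80 in hiEGL2, against 10.15 and 10.13 in EG, and its fall of 1.37-fold (adjusted p = 0.00825) was the smallest of the 10. Without EG replicate 1 its adjusted p was 0.0566. Manba stood at 8.91 and 8.72 in hiEGL1 and at 8.46 and 8.56 in hiEGL2, against 12.49 and 12.51 in EG, a fall of 14.3-fold (log2 difference -3.84 ± 0.09 SE, adjusted p = 1.41e-09). Jam2 was detected on both EG arrays, at 10.08 and 9.99, and on no hiEGL array, a difference of at least 17.0-fold (adjusted p = 4.39e-08). Its hiEGL values, all at background, lay between 4.75 and 5.49.

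The other probes of these genes gave the same picture on this side of the divide. Of the 20 probes tested, 16 were called lower and none higher in hiEGL, where 30.7% of all 12404 probes tested were called lower and 24.9% higher. All 15 probes detected on some array of the 2 groups were among those 16. Manba probe ILMN_1243565, detected on both EG arrays at 9.62 and 9.65, was not detected on any hiEGL array. Dppa5a probe ILMN_3018711 fell by 2.13 ± 0.06 (SE) on the log2 scale, and Tcl1 probe ILMN_2638171 fell by 0.52 ± 0.16 (SE). Among 18 measured other genes of the naive network, 10 were lower and 3 higher, with a median log2 difference of -0.42. Dppa3, also known as Stella and expressed in germ cells, was higher by at least 2.71-fold and Pecam1, a surface marker of naive cells and of endothelium, by 3.27-fold. Stat3, the effector of LIF, was higher by at least 1.49-fold, and 3 of 4 hiEGL arrays detected it. Among the falls were Nr5a2, a nuclear receptor (3.63-fold, detected on 2 of 4 hiEGL arrays), Mras (at least 3.22-fold) and Dnmt3l, a cofactor of DNA methyltransferases, which 2 of 4 hiEGL arrays and both EG arrays detected. All 8 core pluripotency genes measured were lower, among them Tdgf1 (10.9-fold), L1td1 (4.37-fold) and Sox2 (3.80-fold, detected on 1 of 4 hiEGL arrays). Primed markers were mostly lower where called, with 8 of 18 lower, among them Lefty2 (at least 4.61-fold), Dnmt3b (7.90-fold) and Gsc (at least 2.05-fold), and Krt18 (at least 2.82-fold) was the only 1 higher.

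Markers of other cell types moved with this difference. Of 12 measured fibroblast markers 11 were higher in hiEGL, with a median log2 difference of 2.06, and hiEGL1 detected 11 and hiEGL2 detected 12 of the 13 with a probe, against 5 or 6 on the EG arrays. Their summed raw signal was 15279 to 15289 in hiEGL1 and 7556 to 7871 in hiEGL2, against 5558 to 5703 in EG, with Postn not detected in any of these groups. Of 10 measured endoderm and trophectoderm markers 9 were higher (median 2.62), and Elf5 and Hand1 were not detected in any of the 3 groups. Summed raw signals of this list were 4088 to 4165 in hiEGL1 and 3001 to 3267 in hiEGL2, against 1620 to 1647 in EG. Raw sums are not normalized and do not order the 2 lines. The brightest probe had 11270 to 11868 in hiEGL2 and 17186 to 17338 in hiEGL1. After normalization, 1 fibroblast marker and 3 endoderm and trophectoderm markers were called higher in hiEGL2 than in hiEGL1, and 0 lower (medians 0.12 and 0.70). Of all genes tested, 13.9% were called higher and 16% lower in hiEGL2. Of 4 measured gonadal markers 3 were called higher in hiEGL than in EG, Wt1 and Sox9 among them. Only Wt1 and Sox9 were detected in hiEGL, so the third call compares values at background. Gata4, Amh, Nr5a1, Foxl2, Fst, Lhx9, Emx2 and Cyp11a1 were not detected on any EG or hiEGL array. Of 7 measured blood and endothelium markers 4 were higher, while Ptprc, the pan-leukocyte marker, and both globins were not detected. Germ cell genes were split, with Dnd1 and Nanos3 higher and Dazl and Taf7l lower of 6 measured. Nanos3 was detected in hiEGL1 and not in hiEGL2 or EG. The part of these other cell types in the falls of the 10 genes was not tested.

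The 2 hypoxia-induced lines were next set against each other. Of the 10 genes 4 were called, 2 in each direction, where 30% of all genes tested were called (13.9% higher, 16% lower). Klf4 was 2.35-fold higher in hiEGL2 (log2 difference 1.23 ± 0.12 SE, adjusted p = 6.08e-05), and Klf2 by 1.80-fold (adjusted p = 0.00218). Klf5 was lower in hiEGL2 by 1.27-fold (adjusted p = 0.00916) and Dppa5a by 1.65-fold (adjusted p = 6.97e-05). The 3 Krüppel-like factors therefore did not move together between the lines. Probe ILMN_3018711 of Dppa5a was lower too, by 1.59-fold. The other 6 genes were not called, with 95% intervals of the log2 difference between -0.32 and 0.02 for Esrrb, between -0.13 and 0.51 for Tcl1 and between -0.53 and -0.07 for Manba, whose adjusted p was 0.0521. Zfp42 and Jam2 were not detected in either line. At a fold of at least 2, 1 of the 10 genes was called, where 7.28% of all genes were. A fit to only the arrays of these lines called 8 of the 10 genes, where it called 49.1% of all genes. Jam2 was among these 8, although that call compares values at background. Klf5 lost its call without hiEGL1 replicate 1 or hiEGL2 replicate 1, with log2 differences of -0.32 and -0.31.

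Epiblast stem cells, the primed reference point of the series, were set against embryonic stem cells, whose naive state the 10 genes mark. All 10 were lower in EpiSC, where 62.9% of all genes tested were called (28.4% lower, 34.5% higher). The median difference of the 10 genes was -5.04 on the log2 scale, against 0.07 over all genes. Esrrb stood at 5.78 in EpiT9 and 5.20 in EpiE3, against 11.87 and 11.94 in ESCf and 11.86 and 12.03 in ESCm, a fall of 86.4-fold (log2 difference -6.43 ± 0.07 SE, adjusted p = 3.42e-12). Klf4 stood at 5.32 in EpiT9 and 5.08 in EpiE3, against 9.72 and 9.55 in ESCf and 9.9998 and 9.9939 in ESCm, a fall of 24.5-fold. Both genes were still detected in the epiblast lines, close to the limit. Klf2 had the smallest fall, 9.51-fold, with 8.63 in EpiT9 and 7.75 in EpiE3, against 11.40 and 11.53 in ESCf and 11.49 and 11.35 in ESCm. Klf5 fell 13.7-fold, with 7.58 in EpiT9 and 7.17 in EpiE3, against 11.14 and 11.29 in ESCf and 11.08 and 11.07 in ESCm. The Krüppel-like genes were thus detected in both epiblast lines, and in each the epiblast lines lay below every ESC array, as they did for 28.4% of all genes tested.

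Tbx3 was detected in neither epiblast line, against 10.26 and 10.30 in ESCf and 9.22 and 9.13 in ESCm, and was at least 27.5-fold lower. Zfp42 stood at 5.26 in EpiT9 and 5.05 in EpiE3, against 8.64 and 8.63 in ESCf and 9.23 and 9.07 in ESCm, a fall of 13.3-fold. Loss of Rex1 is a textbook mark of leaving the naive state. Dppa5a stood at 9.62 in EpiT9 and 8.28 in EpiE3, against 14.38 and 14.37 in ESCf and 14.51 and 14.31 in ESCm, a fall of 43.4-fold (adjusted p = 4.09e-12). Manba fell 27.8-fold, with 6.56 in EpiT9 and 6.65 in EpiE3, against 11.62 and 11.63 in ESCf and 11.14 and 11.22 in ESCm. Tcl1 and Jam2 were detected in neither epiblast line and were at least 32.9-fold and at least 38.7-fold lower. Every gene had an adjusted p of 3.61e-08 or less, and all 20 probes tested were called lower, where 28.4% of all probes tested were called lower and 34% higher. Of the other naive genes, 16 of 18 measured were lower and none higher, among them Dnmt3l (74.5-fold), Dppa4 (57.6-fold) and the F-box gene Fbxo15 (28.3-fold). Of 18 measured primed markers 14 were higher, led by the homeobox gene Otx2 (24.1-fold), by the growth factor Fgf8 (at least 18.8-fold) and by Fgf5, a marker of the postimplantation epiblast (at least 16.8-fold), and Lefty2 was lower. Core genes fell as well, 7 of 8, among them Sox2 (21.5-fold). EpiT9 and EpiE3 had 1 array each, and their spread was taken to be that of the other groups. A random block for the line left all 10 called, where 36.4% of all genes tested were.

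Primordial germ cells at 11.5 days post coitum were set against embryonic stem cells, and 7 of the 10 genes were detected in both by the probe that stands for them. In PGC11.5, 8 genes were lower than in ESC, 1 was higher and 1 was not called, where 68.5% of all genes tested were called (34.6% lower, 33.9% higher). At a fold of at least 2, 5 of the 10 were called, where 35.9% of all genes were, and of their 20 probes 16 were called lower and 2 higher, where 34.4% of all probes were called lower and 34.2% higher. Esrrb stood at 11.31 and 11.17 in PGC11.5 against 11.87 and 11.94 in ESCf and 11.86 and 12.03 in ESCm, a fall of 1.61-fold (adjusted p = 7.13e-06). Klf4 was not detected in PGC11.5 and was at least 15.6-fold lower than in ESC. Klf2 stood at 10.01 and 9.53, a fall of 3.18-fold (adjusted p = 1.45e-06), and Klf5 at 10.12 and 10.26, a fall of 1.94-fold (adjusted p = 8.19e-07). Among the Krüppel-like genes only Klf4 was thus below detection in these germ cells. Tbx3 was not detected and at least 14.7-fold lower.

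Zfp42 was the only 1 of the 10 genes called higher in PGC11.5. It stood at 9.91 and 9.37 in PGC11.5, against 8.64 and 8.63 in ESCf and 9.23 and 9.07 in ESCm, a difference of 1.68-fold (log2 difference 0.75 ± 0.16 SE, adjusted p = 0.00168), a call lost with a random block for the line (adjusted p = 0.105). Dppa5a, at 13.97 and 13.98, was 1.34-fold lower (adjusted p = 1.18e-04), a difference whose sign changed when arrays were scaled to the same median (log2 difference 0.33), although it stayed below the median of all genes, which that scaling put at 0.73, and a random block for the line ended the call (adjusted p = 0.381). Tcl1 stood at 9.46 and 9.97, within the range of the ESC arrays, and was not called (adjusted p = 0.0730). Its other probe ILMN_2638171 stood at 9.14 and 8.70 in PGC11.5, against 8.15 and 7.78 in ESCf and 6.28 and 6.56 in ESCm, and was called 3.30-fold higher. Manba stood at 7.20 and 6.93, a fall of 20.2-fold (log2 difference -4.34 ± 0.09 SE, adjusted p = 3.48e-10), and Jam2 was not detected by its probe ILMN_2592881 and at least 20.6-fold lower. Jam2 probe ILMN_2790842 was detected on PGC11.5 replicate 1, at 6.08, and was not called against ESC, where it stood between 5.58 and 6.09. By the probes that stand for them, Klf4, Tbx3, Jam2 and Manba had the largest falls in these germ cells. Without PGC11.5 replicate 1, the array with the high globin values, 9 genes were called in the same directions, where 72.9% of all genes were called, and Zfp42 was higher by 0.48 on the log2 scale. Without replicate 2, 10 were called, where 76.9% of all genes were, with Zfp42 higher by 1.02 and Tcl1 lower (adjusted p = 4.02e-05). Both comparisons with ESC share the same ESC arrays, so their falls are not independent of each other. Other naive genes were split, 6 higher and 11 lower of 18, with Dppa3 (13.3-fold) and Dppa4 (1.87-fold) higher and Dnmt3l (at least 115-fold), Socs3 (14.8-fold, detected on 1 of 2 PGC11.5 arrays) and Fgf4 (at least 4.63-fold) lower.

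**Figure D2:**
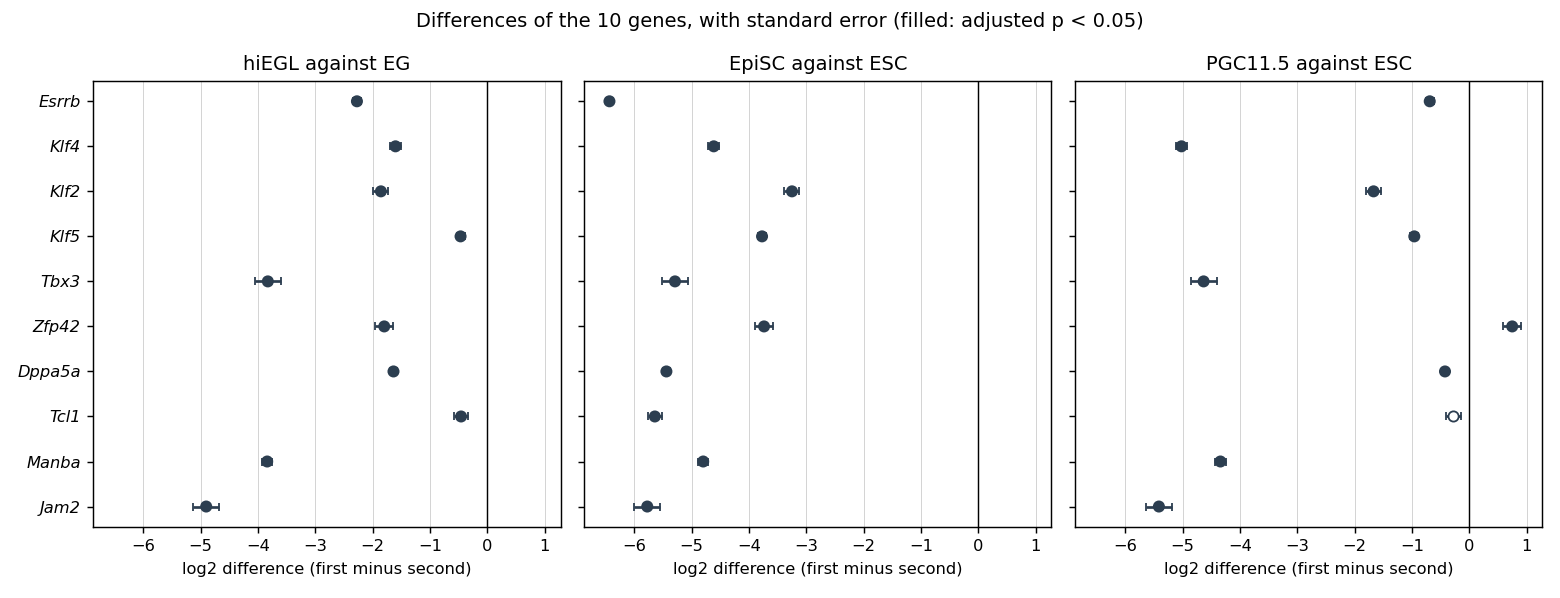
Log2 differences of the 10 genes for hiEGL against EG, EpiSC against ESC and PGC11.5 against ESC, with bars of 1 standard error and filled points for an adjusted p below 0.05. All points of the first 2 panels lie below 0, and in the third Zfp42 lies above 0 and Tcl1 is the open point.

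The female and the male embryonic stem cell line differed in 4 of the 10 genes by the probes that stand for them, all higher in ESCf, where 19.3% of all genes tested were called (10.2% higher, 9.09% lower). Tcl1 stood at 10.75 and 10.65 in ESCf, against 9.20 and 9.36 in ESCm, a difference of 2.68-fold (log2 difference 1.42 ± 0.14 SE, adjusted p = 1.41e-04). Tbx3 was 2.14-fold higher (adjusted p = 0.0170), Jam2 2.00-fold, with 10.74 and 10.70 in ESCf against 9.77 and 9.67 in ESCm (adjusted p = 0.0231), and Manba 1.36-fold (adjusted p = 0.0154). Second probes of Tbx3 (ILMN_3139514, 1.83-fold), Tcl1 (ILMN_2638171, 2.91-fold) and Jam2 (ILMN_1227559, 1.85-fold) were called higher as well. Klf4 and Zfp42 were not called, with values that ran the other way (log2 differences -0.36 and -0.51), and Klf4 probe ILMN_1241903 was called 1.46-fold lower in ESCf (adjusted p = 0.0355 over probes). Klf4 was called lower in ESCf under 3 alternatives, without background correction (adjusted p = 0.0308), by the mean of its probes (adjusted p = 0.0366) and in a fit to only the ESC arrays (adjusted p = 0.00357), and Zfp42 under the first (adjusted p = 0.0384) and the third (adjusted p = 5.99e-04). Leaving out any 1 of the 4 ESC arrays leaves a line with 1 array, and fewer of all genes tested were then called too. Tcl1 kept its call, and Tbx3, Jam2 and Manba lost theirs, so these 3 calls rest on all 4 arrays. Their log2 differences were then 1.06 to 1.15 for Tbx3, 0.95 to 1.05 for Jam2 and 0.41 to 0.48 for Manba. Esrrb and Dppa5a were not called, with 95% intervals of the log2 difference between -0.21 and 0.13 and between -0.19 and 0.12. Each sex is 1 line, so sex and line cannot be told apart.

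Across the array divide the answer depended on the probe. Of the 10 genes, 6 were called between EG and ESC by the probes that stand for them, where 72.9% of all genes tested were called (43.8% higher, 29% lower), so the members' share lay below that of all genes. Esrrb was 3.47-fold higher in EG (adjusted p = 6.09e-09) and Zfp42 5.24-fold lower (adjusted p = 3.41e-07), each measured by 1 probe. Klf2 was 2.43-fold lower and Klf5 2.75-fold lower, also by 1 probe each. Klf4 probe ILMN_2999439 was 1.85-fold higher in EG, while ILMN_1241903 and ILMN_1221264, detected on all ESC arrays and on no EG array, were at least 5.30-fold and at least 2.32-fold lower. Manba probe ILMN_2835723 was 2.14-fold higher in EG and its probe ILMN_1243565 was 1.58-fold lower (adjusted p = 0.0042 over probes). Dppa5a was not called by probe ILMN_3090545, with a 95% interval of the log2 difference between -0.22 and 0.05, and probe ILMN_3018711 was 5.87-fold lower. Dppa5a was called lower in EG with median scaling (log2 difference -0.65, adjusted p = 6.10e-06), by the mean of its probes (-0.94, adjusted p = 8.22e-06) and without ESCm replicate 2 (-0.13, adjusted p = 0.0408). Klf4 and Manba thus had probes called in opposite directions, and no direction between EG and ESC is given for them. Without these 2 genes, 1 gene was called higher and 3 were called lower in EG. Jam2 was not called by probe ILMN_2592881 (adjusted p = 0.466), but its other probes were lower in EG. ILMN_1227559 stood at 6.71 in EG, against 8.10 in ESCf and 7.22 in ESCm. ILMN_2790842 and ILMN_2790839 were detected on every ESC array and on no EG array. By the mean of its probes Jam2 was called lower in EG (log2 difference -0.72, adjusted p = 6.21e-05).

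**Figure D3:**
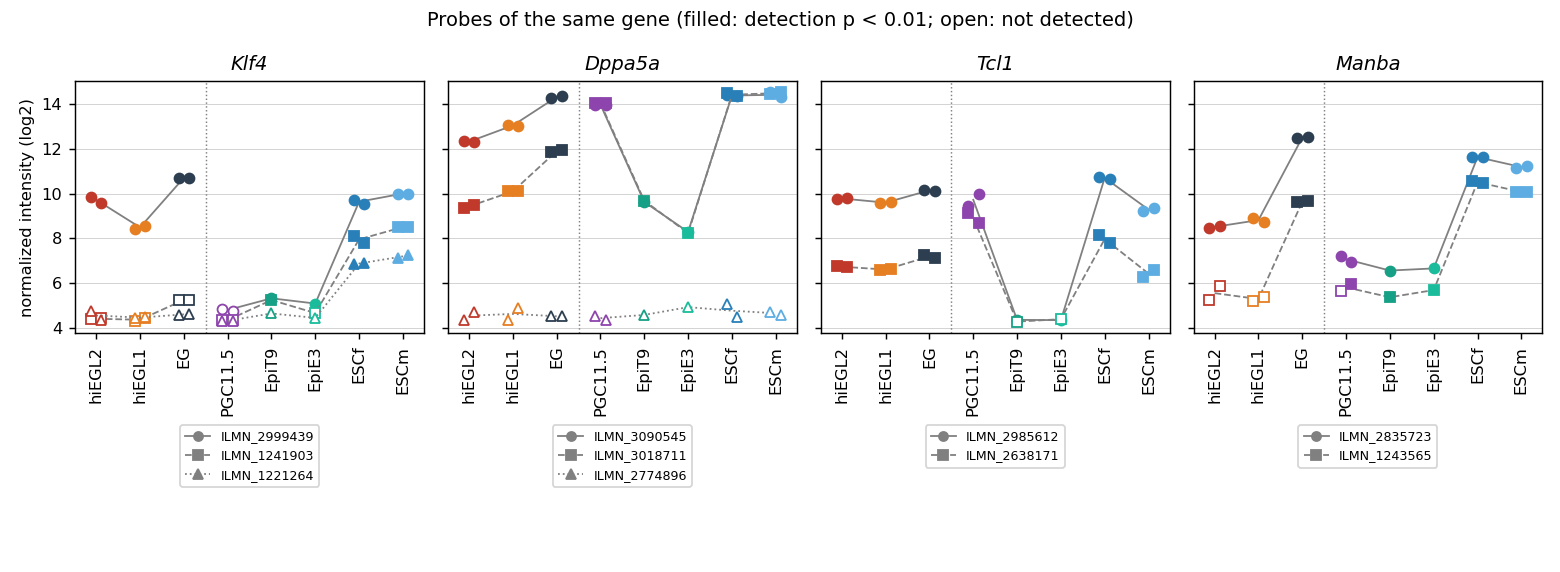
Log2 intensity of every probe of Klf4, Dppa5a, Tcl1 and Manba on each array, with a line for each probe through the group means, filled points for detected probes and the dotted line between the EG and hiEGL arrays and the other 8. The 2 detected probes of Dppa5a run together among the 8 arrays on the right and apart among the 6 on the left, and 2 probes of Klf4 are detected on all 4 ESC arrays and on none of the EG and hiEGL arrays.

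Against ESC, hiEGL had all 10 genes called lower by the probes that stand for them, where 84.2% of all genes tested were called (38.8% lower, 45.4% higher). Jam2 was at least 19.4-fold, Klf2 8.78-fold, Zfp42 at least 7.73-fold and Manba 6.69-fold lower, and Tbx3, which 2 of the 4 hiEGL arrays detected, was 12.8-fold lower with values at background in that mean. Of the 20 probes, 19 were called lower, where 43.9% of all probes were called lower and 39.4% higher, and Tbx3 probe ILMN_3061990 was called higher (adjusted p = 0.0236 over probes). That probe was detected on 3 of 4 ESC arrays and on no hiEGL array, so no fold is given, and without Tbx3 the count is 9 genes lower. Klf4 and Tcl1 were called lower although their hiEGL and ESC arrays overlapped. Without ESCm replicate 2 or ESCf replicate 1 Tcl1 was not called (adjusted p = 0.0622 and 0.0549), and a random block for the line ended the calls of Klf4 (adjusted p = 0.0518) and Tcl1 (adjusted p = 0.445). Higher in hiEGL were also 11 of 12 measured fibroblast markers (median log2 difference 2.54), 8 of 10 endoderm and trophectoderm markers (2.19), 3 of 4 gonadal markers (1.75) and 5 of 7 blood and endothelium markers (2.16). Of the gonadal list, hiEGL detected only Wt1 and Sox9. Of the 13 fibroblast markers with a probe, hiEGL1 detected 11 and hiEGL2 12, against 7 or 8 in ESCf and 8 in ESCm, with Postn in none of them. Their summed raw signal, which is not normalized, was 15279 to 15289 in hiEGL1 and 7556 to 7871 in hiEGL2. It was 7164 to 8264 in ESCf and 5492 to 5953 in ESCm. The brightest probe had a raw signal of 11270 to 11868 in hiEGL2 and 40718 to 42008 in ESCf, so these sums do not order the groups. The part of these markers' cell types in the falls against ESC was not tested.

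Against PGC11.5, the hypoxia-induced lines had 4 genes called higher and 4 lower by the probes that stand for them, where 77.1% of all genes tested were called (45.1% higher, 32.1% lower). At a fold of at least 2, 5 of the 10 were called, where 52.6% of all genes were. Among the 10 genes, Klf4 had the largest rise, at least 9.49-fold higher by its probe ILMN_2999439, with 8.41 to 9.85 in hiEGL against 4.82 and 4.77 in PGC11.5. The other Klf4 probes were detected in neither group. Zfp42 had the largest fall, at least 13.0-fold lower, as it was not detected on any hiEGL array, against 9.91 and 9.37 in PGC11.5. Klf2 was 2.76-fold lower, Klf5 1.96-fold lower and Dppa5a 2.45-fold lower, and Esrrb 1.16-fold higher (adjusted p = 0.0150), a call lost without PGC11.5 replicate 2 (adjusted p = 0.109). Tbx3, detected in hiEGL1 only, was at least 1.15-fold higher. With median scaling its log2 difference was -0.18, which lay above the median of all genes, then at -0.40. A random block for the line ended the calls of Tbx3 (adjusted p = 0.130) and Esrrb (adjusted p = 0.399). Manba was 3.02-fold higher by probe ILMN_2835723, which every array of both groups detected. Its probe ILMN_1243565 was detected on 1 PGC11.5 array and on no hiEGL array, so no fold is given, and its values were called lower in hiEGL (adjusted p = 0.0484 over probes), which leaves 3 genes higher and 4 lower without Manba. Jam2 probe ILMN_2592881 was detected in neither group, and probe ILMN_2790842 only on PGC11.5 replicate 1. Tcl1 was not called (adjusted p = 0.822), although its probe ILMN_2638171 was 4.75-fold lower in hiEGL. The sign for Tcl1 turned on the PGC11.5 array, with a log2 difference of -0.29 without replicate 1 and 0.22 without replicate 2. For Jam2 these were -0.19 and 0.83. All other members kept their direction without either array. Markers of other cell types moved with this comparison too, as 10 of 12 measured fibroblast markers (median log2 difference 3.54), 8 of 10 endoderm and trophectoderm markers (2.55) and 3 of 4 gonadal markers were higher in hiEGL. Of the gonadal list, hiEGL detected only Wt1 and Sox9, and PGC11.5 detected none. Summed raw signals of the fibroblast markers were 15279 to 15289 in hiEGL1 and 7556 to 7871 in hiEGL2, against 1110 to 1470 in PGC11.5, with Postn not detected in any of the 3 groups. Their part in the differences of the 10 genes was not tested.

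The order of the 8 groups, set by the mean of the probe that stands for the gene, put both epiblast lines below ESCf, ESCm and EG for all 10 genes. Neighbours in that order were tested over all 12404 probes. For Esrrb, EG was highest at 13.72, followed by ESCm at 11.95 and ESCf at 11.91, which did not differ beyond their spread, then hiEGL1 at 11.52, hiEGL2 at 11.37 and PGC11.5 at 11.24, with no difference called from 1 to the next among these 3, then EpiT9 at 5.78 and EpiE3 at 5.20. For Klf4, probe ILMN_2999439 was highest in EG at 10.70. At the bottom were EpiT9 at 5.32, EpiE3 at 5.08 and PGC11.5, where it was not detected, at 4.80. No step from 1 to the next among these 3 was called. Probe ILMN_1241903 had ESCm at 8.50 and ESCf at 7.95 above EG at 5.25, so the place of EG depended on the probe. For Klf2, both ESC lines were highest, at 11.46 in ESCf and 11.42 in ESCm, and hiEGL1 at 7.88 and EpiE3 at 7.75 were lowest and not separated. Klf5 had ESCf, ESCm, PGC11.5, EG, hiEGL1, hiEGL2, EpiT9 and EpiE3 in falling order, and only the 2 ESC lines and the 2 epiblast lines were not separated. In Klf2, hiEGL2 was not separated from EpiT9, nor hiEGL1 from EpiE3, while in Esrrb and Klf5, measured by 1 probe each, both hypoxia-induced lines stood above both epiblast lines. In Klf4 they did so by probe ILMN_2999439, whereas ILMN_1241903 was detected in EpiT9, at 5.24, and in neither hypoxia-induced line. The lowest detected values on the hiEGL arrays were 5.75 to 6.07, above that value, so ILMN_1241903 does not order these lines.

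Zfp42 had its highest mean in PGC11.5, at 9.64, then ESCm at 9.15 and ESCf at 8.64, and EG at 6.50 stood apart below them. EpiT9, EpiE3, hiEGL1 and hiEGL2 followed without a difference between neighbours. Zfp42 was detected in EpiT9, at 5.26, and in EpiE3, at 5.05, and on no hiEGL array. The lowest detected values on the hiEGL arrays were 5.75 to 6.07, above those values, so Zfp42 does not order the hypoxia-induced and epiblast lines. Tbx3 probe ILMN_1247220 was highest in ESCf at 10.28 and EG at 9.88, which were not separated, then ESCm at 9.18, and the remaining 5 groups were at 6.25 or below. By probe ILMN_3139514, ESCf at 9.28 was separated from EG at 8.52 (adjusted p = 0.0118), and EG was not separated from ESCm at 8.40 (adjusted p = 0.673). Jam2 probe ILMN_2592881 had the same 3 groups on top, with ESCf at 10.72, EG at 10.03 and ESCm at 9.72, and it was detected in no other group. Its probe ILMN_1227559 had ESCf at 8.10, ESCm at 7.22 and EG at 6.71, with ESCm above EG (adjusted p = 0.00917). Manba probe ILMN_2835723 was highest in EG at 12.50, then ESCf at 11.63, ESCm at 11.18, hiEGL1 at 8.81, hiEGL2 at 8.51 and PGC11.5 at 7.06, with both epiblast lines lowest, while probe ILMN_1243565 had ESCf at 10.51 and ESCm at 10.07 above EG at 9.63. Dppa5a probe ILMN_3090545 had ESCm, ESCf and EG together at 14.31 to 14.41, then PGC11.5 at 13.97, hiEGL1 at 13.04 and hiEGL2 at 12.31, and EpiT9 at 9.62 and EpiE3 at 8.28. Its probe ILMN_3018711 put EG, at 11.89, below PGC11.5 at 14.03 (adjusted p = 2.28e-09), and EpiT9 at 9.68 above hiEGL2 at 9.42 (adjusted p = 0.0244). Tcl1 probe ILMN_2985612 was highest in ESCf at 10.70, the other groups apart from the epiblast lines lay between 9.28 and 10.14, and both epiblast lines were undetected. Among EG, hiEGL2, PGC11.5, hiEGL1 and ESCm, in that order, no step of that probe to the next group was called. Tcl1 probe ILMN_2638171 was instead highest in PGC11.5 at 8.92, above ESCf at 7.96 (adjusted p = 0.00117), then EG at 7.19, and no step was called among EG, hiEGL2, hiEGL1 and ESCm.

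Likeness between genes was described by correlations across arrays, taken within each side of the divide. Over the 45 pairs of genes, Pearson's r had a median of 0.902 over the 6 EG and hiEGL arrays and 0.870 over the other 8, and no pair was below 0. On the EG and hiEGL side it was lowest for Klf4 and Klf5 (0.389) and highest for Tbx3 and Manba (0.9996), and on the other side lowest for Klf4 and Zfp42 (0.374) and highest for Esrrb and Dppa5a (0.995). Arrays of a group share their source and most groups differ in the same genes, so these values have no test. The genes most like each member, by the lower of its 2 correlations, were Rbmxl2 (0.987) and Mak16 (0.986) for Esrrb, and Dpp4 (0.992) and Cct8 (0.984) for Klf4. For Klf2 they were Zfp985 (0.976) and Ube2q2 (0.974), and for Klf5 Cul4b (0.966) and Gle1 (0.964). Tbx3 was closest to the keratin gene Krt17 (0.988) and to Stra8 (0.987), a retinoic acid-responsive gene needed for meiosis, and Stra8 (0.995) was also closest to Manba, with Pla2g1b (0.994). Zfp42 was closest to Anxa11 (0.989) and Ash2l (0.987), and Dppa5a to Rbmxl2 (0.985) and Cul4b (0.980). Tcl1 was closest to Gcnt2 (0.970) and to Suz12 (0.967), a subunit of Polycomb repressive complex 2. Jam2 was closest to Grtp1 (0.993) and to Gdf3 (0.992), a growth factor gene of pluripotent cells.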

How the data were processed

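For each array, the authors' raw table gives, per the file headers, a probe intensity and, as deposited, a detection p-value for 25697 probes, on 14 arrays. The authors' second deposited table holds normalized log2 values and served only as an alternative. BeadStudio 3.2, RMA and lumi were used per the submitters' processing notes, with settings not given in the sources used here. Per the labels' protocols, 2 amplifications are described for every sample.

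Of the probes, 23978 had 1 gene in the platform annotation, 0 had several and 1719 had none. The Entrez IDs of 99.9% were in RefSeq's table, and 0 symbols changed. In R 4.3.3, the function neqc of limma 3.58.1 corrected the background from the detection p-values (offset 16) and gave quantile-normalized log2 intensities. The brightest probe on average stood for a gene, which was tested if at least 2 arrays detected that probe at p below 0.01 (9054 genes). A mean per group was fitted to all 14 arrays (6 residual degrees of freedom, 9.76 after moderation with a trend). ESC, EpiSC and hiEGL are means of their 2 lines with equal weight. Adjusted p-values are Benjamini-Hochberg values across all genes tested, or across 12404 probes. The number of arrays limits the precision.

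The members, the gene lists and the tests were chosen with earlier results of these data known. From the lists of other naive, core and primed genes, up to 3 called rises and 3 called falls with the largest difference were eligible to be named per comparison, and germ cell, fibroblast, gonadal, endoderm and trophectoderm, and blood and endothelium markers were counted. Likeness is the lower Pearson r over the 6 EG and hiEGL arrays and the other 8. Same-numbered replicates were checked for pairing over 15 pairs of groups (r of their differences -0.03 to 0.03, 0 over 0.1), so the numbers do not pair samples. The code was tested on simulated data. Figures were drawn with Python 3.11.15 and matplotlib 3.10.9. Alternatives are given at the end.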

Additional observations from a re-analysis of the deposited data

Results flagged for a closer look

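Of the 10 genes, 4 differed between the hypoxia-induced lines in their change against EG, by the test of that difference in limma, where 30% of all genes tested did. The change in hiEGL2 minus that in hiEGL1 was 1.23 on the log2 scale for Klf4, with falls of 1.98-fold in hiEGL2 and 4.64-fold in hiEGL1. It was 0.85 for Klf2, with falls of 2.69-fold in hiEGL2 and 4.86-fold in hiEGL1. For Klf5 the difference of changes was -0.35, with falls of 1.56-fold in hiEGL2 and 1.23-fold in hiEGL1, and for Dppa5a it was -0.72, with falls of 3.99-fold in hiEGL2 and 2.42-fold in hiEGL1. The EG arrays are common to both changes and cancel in these differences. Groups of 1 or 2 arrays were too small for a test of outlying arrays.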

How the results depend on the processing

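Called members numbered 10 for hiEGL against EG, 4 for hiEGL2 set against hiEGL1, 4 for ESCf against ESCm, 10 for EpiSC against ESC, 9 for PGC11.5 against ESC, 6 for EG against ESC, 10 for hiEGL against ESC and 8 for hiEGL against PGC11.5. Of 1290 values of single genes under the alternatives, 1191 kept direction and call, 51 lost the call, 28 gained it and 20 changed sign. With the replicate number as a replicate block these counts were again 10, 4, 4, 10, 9, 6, 10 and 8. The authors' values gave 2 calls for ESCf against ESCm. A 2-fold minimum gave 1 for hiEGL2 against hiEGL1, 5 for PGC11.5 against ESC and 5 for hiEGL against PGC11.5. A fit to only the compared arrays gave 8 for hiEGL2 against hiEGL1. Normalizing and fitting within 1 side of the array divide, an alternative added after the data were seen, gave 9 between the hypoxia-induced lines and 1 between the ESC lines. The cause of these moves was not tested. Leaving out 1 array at a time gave 9 to 10 for hiEGL against EG, 3 to 4 for hiEGL2 set against hiEGL1, 1 to 1 for ESCf against ESCm, 10 to 10 for EpiSC against ESC, 9 to 10 for PGC11.5 against ESC, 6 to 7 for EG against ESC, 9 to 10 for hiEGL against ESC and 8 to 9 for hiEGL against PGC11.5. Scaling arrays to the same median changed these signs: in hiEGL2 against hiEGL1, Tbx3 was 0.082, Zfp42 0.57 and Jam2 0.22, in ESCf against ESCm, Esrrb was 0.12 and Dppa5a 0.15, in PGC11.5 against ESC, Dppa5a was 0.33, in EG against ESC, Tbx3 was -0.062 and Tcl1 -0.11, and in hiEGL against PGC11.5, Tbx3 was -0.18 and Jam2 -0.72 (log2). That scaling put the median of all genes at 0.38 for hiEGL against EG, 0.29 for hiEGL2 set against hiEGL1, 0.73 for PGC11.5 against ESC, 0.42 for hiEGL against ESC and -0.40 for hiEGL against PGC11.5, so that Dppa5a in PGC11.5 lay below the median gene. The share of called genes that were higher was then 62.1% for hiEGL against EG (45.9% as reported), 63.1% for hiEGL2 against hiEGL1 (46.6%), 73.5% for PGC11.5 against ESC (49.5%) and 38.0% for hiEGL against PGC11.5 (58.4%). The mean of a gene's probes gave 0.0023 for Dppa5a in ESCf against ESCm, 0.72 for Tcl1 in PGC11.5 against ESC, -1.51 for Klf4 in EG against ESC and -0.47 for Jam2 in hiEGL against PGC11.5. Leaving out 1 array gave -0.14 to 0.070 for Dppa5a, -0.12 to 0.047 for Esrrb and -0.024 to 0.11 for Klf2 in ESCf against ESCm, and -0.19 to 0.83 for Jam2 and -0.29 to 0.22 for Tcl1 in hiEGL against PGC11.5. Over all genes, the line as a random block gave 2895 calls (5598 as reported) for hiEGL against EG, 3294 (5692) for EpiSC against ESC, 3475 (6198) for PGC11.5 against ESC and 3916 (6599) for EG against ESC. For hiEGL2 against hiEGL1 (2713) there were 4447 with only the compared arrays, 4719 within 1 side of the divide and 1634 to 1795 without 1 array, and for ESCf against ESCm (1747) there were 3030, 570 and 839 to 981. A 2-fold minimum left 2766, 659, 374, 2567, 3250, 3719 and 4955 genes for the first 7 comparisons in the order above, the last of 7622. Genes undetected in a group give bounds only, and values near background have no order.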
